A study of Mus musculus with 8 samples.

Results

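Hormone-sensing luminal cell genes were followed in luminal cells sorted from the mammary glands of mice on day 15 of pregnancy. The genes were taken by symbol from a list of 10, and 8 of them had a probe set with that symbol on the array: Esr1, Pgr, Foxa1, Wnt4, Tnfsf11, Cited1, Cxcl15 and Prom1. Each had 1 probe set, out of 19505 genes measured in all. Gata3 and Ly6a were not analysed here. The study compared 4 samples labelled a3a6KO with 4 labelled control, described by its design as biological replicates. The knockout name stands for the integrin chains alpha 3 and alpha 6, products of Itga3 and Itga6, subunits of laminin receptors by which epithelial cells hold on to the basement membrane. Every sample came from fresh tissue that was digested, stained and sorted, and 500 pg of total RNA was amplified per array. The titles of the a3a6KO samples also carry the word Ctrl, while their source name and subtype label name the knockout alone, and the groups follow the subtype label. The sources used here do not give the strain, the age of the mice, the deleted parts of Itga3 and Itga6, any Cre line or the antibodies of the sort.

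The luminal layer of the mammary epithelium holds alveolar cells, which make milk, and hormone-sensing cells, which carry the receptors for oestrogen and progesterone. Hormone-sensing cells answer the ovarian hormones and pass the signal on by secreted factors, chiefly RANK ligand and Wnt4, to neighbouring cells that lack the receptors. By late pregnancy the alveolar cells outnumber them. In RNA from sorted cells of mixed type, fewer hormone-sensing cells and less RNA of these genes per cell cannot be told apart, so a share of hormone-sensing cells was not derived from the arrays.

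The targeted genes were read as a check of the labels. Itga6 stood at 5.95, 3.65, 8.21 and 7.85 in a3a6KO 1 to 4, against 8.83, 8.73, 9.14 and 8.80 in control 1 to 4 (log2 values, here and below). Itga3 stood at 5.11, 4.34, 5.55 and 5.60 in a3a6KO, against 6.72, 6.30, 5.37 and 7.27 in control. Itga6 was thus lower on every a3a6KO array than on any control array, but unevenly so, and the Itga3 groups overlapped at control 3. Luminal markers were plain on all arrays, where 11 of the 12 lay above the background line defined below on every array. Krt18 lay between 10.78 and 11.24 and Epcam, a surface protein of epithelial cells, between 10.17 and 10.44. Some markers of other cells exceeded that line on every array too. They were Krt14 (6.97 to 10.91) and Acta2 (6.98 to 10.37) of the basal and myoepithelial list and Fabp4 (8.94 to 11.42) of the adipocyte list. Any pair of arrays of 1 group correlated at 0.93 to 0.945 across genes, and pairs from different groups at 0.924 to 0.946, so genotype did not set the arrays apart.

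Most values of the hormone-sensing genes lay in the range of background controls in these sorted cells. The array carries 5222 control probe sets that lie in introns and give a picture of background. The background line of an array was set at the value that 95% of its intron sets do not exceed, which was 6.38 to 6.90, while the median intron set lay at 2.85 to 3.07. This line is strict, since the median of the exon control sets was 6.36 to 6.5, at or under the line on most arrays. A value under the line therefore does not show that a transcript was weak or absent. All 8 genes exceeded the median of the intron sets on all 8 arrays, a level that many of the intron sets exceed too and that shows no signal by itself. Of the 8 genes, 0 exceeded the background line on every array, 5 did so on no array, and the 3 that did so at all were Cited1 on 4 arrays, Tnfsf11 on 1 and Cxcl15 on 1. Of all genes, 8.25% exceeded the line on every array and 76.4% on none, so the hormone-sensing genes lay where most genes of the array lay. By contrast, 8 of 10 alveolar secretory genes exceeded it on every array, with the casein gene Csn2 between 12.24 and 12.67.

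The hormone receptors stayed under the background line on all arrays. Esr1, the gene of oestrogen receptor alpha, was at 3.32, 3.75, 3.77 and 3.55 in a3a6KO 1 to 4, against 3.94, 3.71, 3.67 and 3.01 in control 1 to 4. It exceeded 54.3% to 68.7% of the intron sets, and its values spread over less than 1 log2 unit with no gap between the groups. Pgr, the gene of the progesterone receptor and itself a target of the oestrogen receptor, was at 5.12, 4.39, 4.57 and 4.96 in a3a6KO, against 4.15, 5.92, 5.37 and 4.42 in control. It exceeded 71.3% to 91.3% of the intron sets. The controls spanned a wider range than the a3a6KO samples and enclosed all of them.

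Foxa1 encodes the forkhead factor that opens chromatin for the oestrogen receptor. It was at 4.47, 4.02, 4.65 and 4.52 in a3a6KO 1 to 4, against 4.50, 4.85, 5.24 and 3.69 in control 1 to 4. Its highest and its lowest value both belonged to controls, so the a3a6KO samples lay inside the control range.

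Of the paracrine signals, Wnt4 stayed under the background line on every array and Tnfsf11 exceeded it on a single a3a6KO array. Wnt4, a secreted Wnt protein induced by progesterone, was at 4.43, 4.21, 4.6 and 4.94 in a3a6KO 1 to 4, against 4.45, 4.56, 4.19 and 4.07 in control 1 to 4. Its values had the smallest range of the 8 genes, 0.87 over all arrays, and the groups overlapped. Tnfsf11, the gene of RANK ligand, which progesterone induces and which drives alveolar growth, was at 4.03, 4.05, 3.86 and 6.57 in a3a6KO, against 4.41, 4.87, 5.63 and 3.27 in control. A single array, a3a6KO 4, was high among the a3a6KO samples and alone exceeded the background line, while the controls ranged from 3.27 to 5.63.

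Cited1, a co-regulator of transcription that binds the oestrogen receptor and marks hormone-sensing cells, stood highest against the intron sets and spread most widely. It was at 7.69, 4.88, 5.08 and 8.59 in a3a6KO 1 to 4, against 5.17, 5.74, 9.29 and 7.04 in control 1 to 4. It stood above the background line on a3a6KO 1 and 4 and on control 3 and 4, that is on 2 arrays of each group, and below it on the others. The SD within groups, 1.85, was larger than that of 99.9% of genes. It exceeded 82.4% of the intron sets on a3a6KO 2, its lowest array, and 99.4% on control 3, its highest.

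Cxcl15, which encodes a chemokine known from mouse lung epithelium, was at 4.37, 3.53, 4.56 and 6.18 in a3a6KO 1 to 4, against 4.58, 5.56, 6.88 and 4.94 in control 1 to 4. Only control 3 exceeded the background line. Of the a3a6KO samples, a3a6KO 1, 2 and 3 lay below every control, and a3a6KO 4 lay among the controls. Prom1, whose product CD133 (prominin 1) is a surface protein used to sort hormone-sensing luminal cells, was at 3.49, 3.83, 3.36 and 4.77 in a3a6KO, against 3.55, 3.93, 4.28 and 3.49 in control. It never approached the background line, and a3a6KO 4 was again its highest array.

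**Figure D1:**
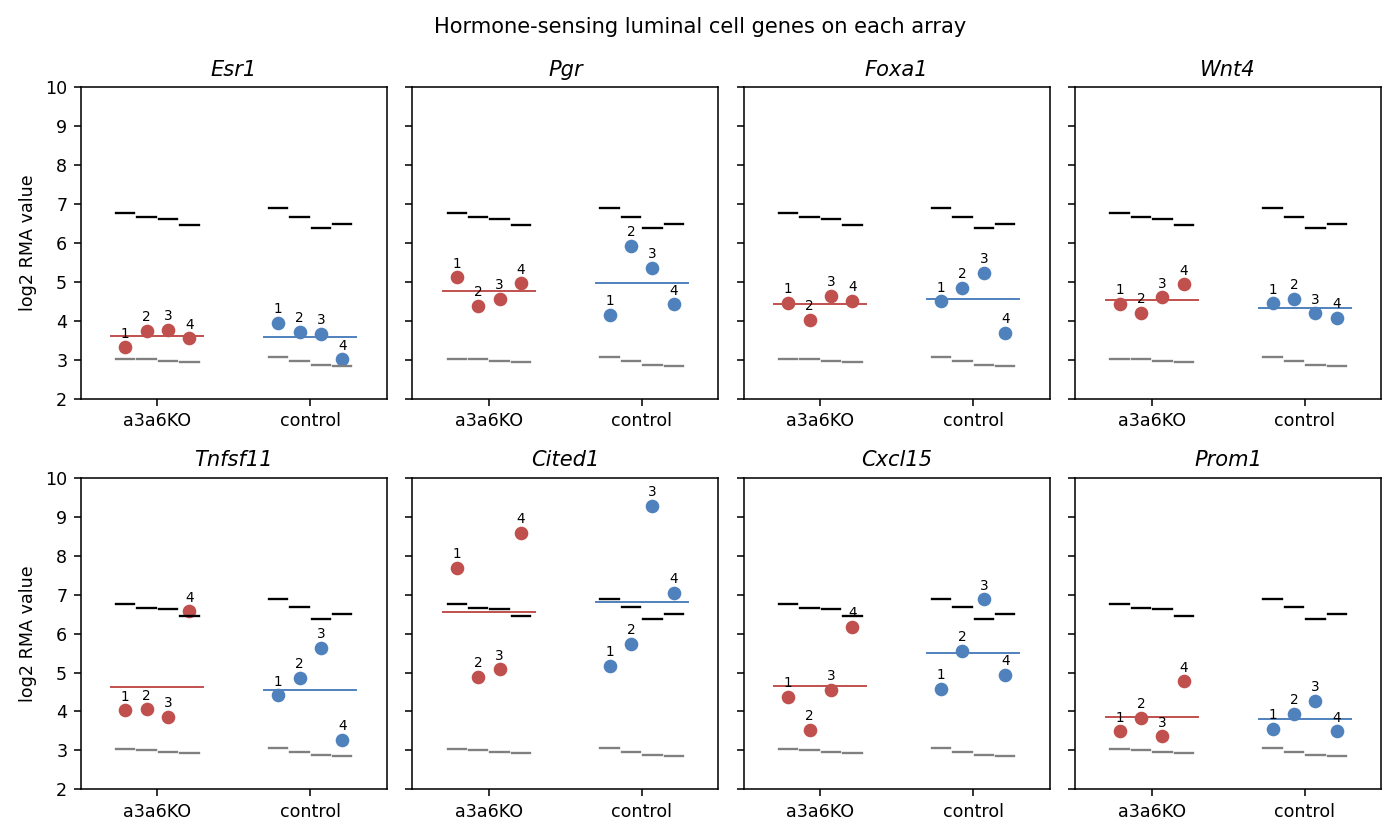
Log2 values of the 8 hormone-sensing genes (y axis) on each array, a3a6KO in red and control in blue, numbered by replicate, with the group mean as a coloured line, the level that 95% of the intron control sets of that array do not exceed as a short black line and their median as a short grey line. Cited1 passes the black line on 4 arrays, 2 of each group, and Esr1, Pgr, Foxa1, Wnt4 and Prom1 pass it on none.

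The comparison of a3a6KO with control found no hormone-sensing gene past the threshold. Of the 8 genes, 4 had higher and 4 lower means in a3a6KO, with a median difference of -0.07 against -0.002 over all genes (a3a6KO minus control, log2). In limma, 0 of the 8 passed an adjusted p of 0.05, as did 0 of all 19505 genes (0.0%). The targeted genes did not pass either, with differences of -2.46 for Itga6 and -1.26 for Itga3 and an adjusted limma p of 0.944 for each. At an unadjusted p under 0.05 there were 0 of the 8, against 1000 of all genes (5.13%), of which 468 were higher (2.4%) and 532 lower (2.73%) in a3a6KO. The groups overlapped in each of the 8 genes, whereas they did not overlap in 2.94% of all genes.

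The lowest p of the 8 belonged to Cxcl15, which averaged 4.66 ± 1.11 in a3a6KO and 5.49 ± 1.01 in control (SD, n = 4 each), a difference of -0.83 (SE 0.617) with a 95% interval from -2.22 to 0.56 and an adjusted p of 0.95 in limma. Wnt4 averaged 4.54 ± 0.31 in a3a6KO and 4.32 ± 0.23 in control, a difference of 0.23 with an interval from -0.23 to 0.69. Neither difference was larger than the spread between replicates allows. Of all genes, 9822 of 19505 had lower means in a3a6KO. Among marker lists of other cells, lower means were found in 11 of 11 basal and myoepithelial genes (median -0.623), 10 of 10 alveolar secretory genes (median -0.271), 8 of 10 leukocyte and 7 of 9 fibroblast genes. Lower means were found in 6 of 10 luminal progenitor, 4 of 10 endothelial, 3 of 7 adipocyte and 3 of 12 luminal identity genes. In limma 0 of them passed the adjusted threshold, and the part of these marker values in the differences of the hormone-sensing genes was not tested.

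The receptor genes had small differences between the group means, measured with unequal precision. The difference of Esr1 was 0.02 (interval -0.49 to 0.52), and that of Pgr was -0.20 (interval -1.07 to 0.66). Foxa1 differed by -0.16 (interval -0.87 to 0.56) and Prom1 by 0.05 (interval -0.68 to 0.78). These intervals describe the measured log2 values, and since these 4 genes and Wnt4 stayed under the background line on every array, they do not bound the change of the transcripts themselves.

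The intervals were widest for Cited1, Tnfsf11 and Cxcl15, and the same limit holds for them, since Cited1 exceeded the background line on 4 of 8 arrays and the others on 1 each. Cited1 averaged 6.56 ± 1.86 in a3a6KO and 6.81 ± 1.83 in control, a difference of -0.25 with an interval from -2.63 to 2.13. Tnfsf11 averaged 4.63 ± 1.3 in a3a6KO and 4.54 ± 0.99 in control, a difference of 0.08 with an interval from -1.42 to 1.59. Single arrays decided the sign in 6 of the 8 genes. Cited1 differed by 0.58 without control 3, 0.31 without a3a6KO 2 and 0.24 without a3a6KO 3, and Tnfsf11 by -0.57 without a3a6KO 4. Cxcl15 and Wnt4 kept their sign whichever array was left out, between -1.34 and -0.37 for Cxcl15 and between 0.10 and 0.34 for Wnt4.

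**Figure D2:**
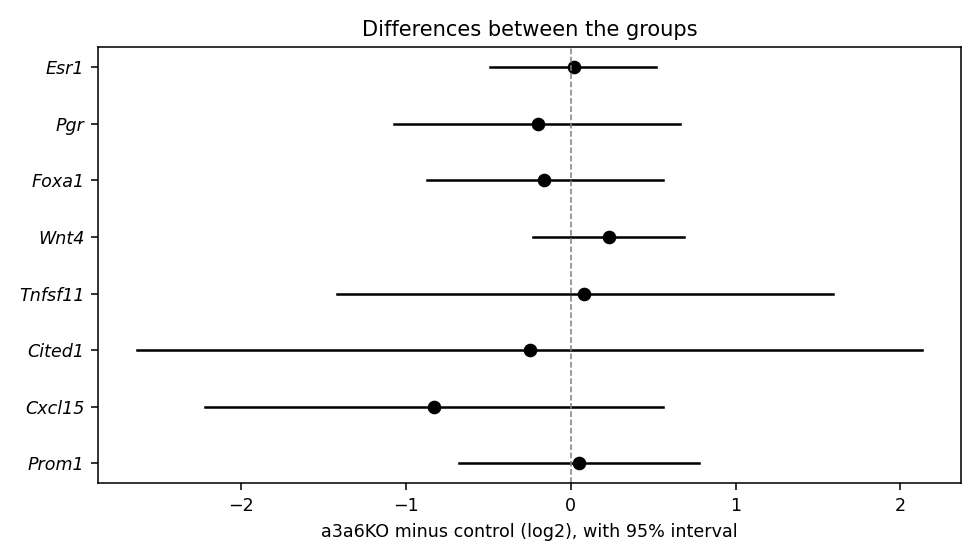
Difference of each gene, a3a6KO minus control on the log2 scale (x axis), as a point with its 95% interval from limma over 4 arrays a group. All 8 intervals include 0, and that of Cited1, from -2.63 to 2.13, is the widest.

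The larger differences lay between arrays of the same group. Cited1, Tnfsf11, Cxcl15 and Prom1 all had a3a6KO 4 and control 3 as their 2 highest arrays, 1 array of each genotype. Cited1 reached 8.59 on a3a6KO 4 and 9.29 on control 3, against 4.88 to 7.69 on the other 6 arrays. Tnfsf11 reached 6.57 on a3a6KO 4 and 5.63 on control 3, against 3.27 to 4.87 elsewhere. For Cxcl15 the values were 6.18 on a3a6KO 4 and 6.88 on control 3, against 3.53 to 5.56. The mean of the 4 genes relative to their averages was 1.48 on a3a6KO 4 and 1.47 on control 3, and between -0.97 and -0.02 on the others. None of Esr1, Pgr, Foxa1 and Wnt4 had both arrays as their 2 highest, but some shared part of the pattern. Foxa1 was highest on control 3 (5.24), Wnt4 was highest on a3a6KO 4 (4.94), and control 3 was second for Pgr (5.37). Their mean with Esr1 was 0.15 on a3a6KO 4 and 0.27 on control 3, and between -0.55 and 0.42 on the others. Cited1, Tnfsf11, Cxcl15 and Prom1 were singled out after their values were seen. The pattern is thus a description, set beside the 747 of 19505 genes (3.83%) that had the same arrays highest.

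Between pairs of the 8 genes, 28 correlations over the 8 arrays were computed, of which 25 were positive, with a median r of 0.44. The same figures were not computed for pairs of other genes. The 28 pairs share the 8 genes and are not independent, and the part of signal differences between arrays was not tested. The pair with the closest pattern was Tnfsf11 and Prom1, with a Pearson r of 0.94 (exact permutation p = 0.00149, adjusted 0.0417) and a Spearman rho of 0.93 (exact permutation p = 0.00169, adjusted 0.0472), and this was the only pair past 0.05 after adjustment over the 28. Without a3a6KO 4 and control 3 their r was 0.65. Prom1 exceeded the background line on no array and Tnfsf11 on 1, so these correlations describe measured values that mostly lay under that line. Cited1 and Cxcl15 had an r of 0.77 (exact permutation p = 0.0264, adjusted 0.296) and a rho of 0.74 (exact permutation p = 0.0458, adjusted 0.402). Without a3a6KO 4 and control 3, the 2 highest arrays of both genes, their r was 0.25. Leaving out the extremes of both genes can lower r by itself, so no conclusion is drawn from that drop. Esr1 had the lowest r of the 28 with Cited1, -0.44 (exact permutation p = 0.284, adjusted 0.517), with a rho of -0.67 (exact permutation p = 0.0831, adjusted 0.402) and an r of -0.71 without a3a6KO 1 and control 4.

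The arrays a3a6KO 4 and control 3 lay at the upper end of a range in how many genes they registered. They had 3198 genes above the background line on a3a6KO 4 and 3229 on control 3, followed by control 4 with 3070, and the other arrays had 2244 to 2769. Their background lines were 6.45 on a3a6KO 4 and 6.38 on control 3, next to 6.5 on control 4. An exon control set outranked an intron set with a probability of 0.873 on both, within the 0.852 to 0.879 of all arrays, with control 4 highest. The part of this difference in signal in the high values of the 4 genes was not tested. Read against the intron sets of the same array, Cited1 exceeded 99% of them on a3a6KO 4 and 99.4% on control 3, 97.5% on a3a6KO 1 and 97.2% on control 4, and 82.4% to 90.2% on the other arrays. Prom1 exceeded 83.1% on a3a6KO 4 and 78.4% on control 3, against 59.5% to 69.9% on the others.

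Markers of other cells were set beside the same arrays. The luminal identity markers were flat, at -0.01 on a3a6KO 4 and 0.08 on control 3 relative to their mean over arrays, and the alveolar secretory genes at 0.00 on a3a6KO 4 and 0.15 on control 3. Basal and myoepithelial markers (11 genes) ranged from -1.01 to 0.81 in a3a6KO and from -0.28 to 1.44 in control, and stood at -0.73 on a3a6KO 4 and -0.28 on control 3. Endothelial markers (10 genes) ranged from -0.93 to 1.27 in a3a6KO and from -0.62 to 1.5 in control, with a3a6KO 3 and control 4 highest and -0.15 on a3a6KO 4 and -0.50 on control 3. Neither list mean was high where Cited1, Tnfsf11, Cxcl15 and Prom1 were, but single genes differed from the mean. The basal keratin genes Krt5 (7.03 on a3a6KO 4, 9.54 on control 3) and Krt14 (8.11 on a3a6KO 4, 10.20 on control 3) were above the line there. This was not particular to these arrays, since Krt14 exceeded the line on all 8 arrays and Krt5 on 4. Krt14 was higher on control 2 (10.91) than on control 3, and higher on a3a6KO 3 (8.87) than on a3a6KO 4. Krt5 was at 9.44 on control 2 and 5.47 on a3a6KO 3. The part of other cell types in the values of the hormone-sensing genes was not tested.

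RANK ligand is also made by T cells, and leukocyte markers were therefore read on the arrays. Of 10 leukocyte genes 9 exceeded the background line on no array, and their mean ranged from -0.16 to 0.02 in a3a6KO and from -0.13 to 0.48 in control, highest on control 3. There Ptprc, the gene of the pan-leukocyte protein CD45, was at 7.07, and Lyz2, a gene of myeloid cells, at 6.11, while the T cell receptor genes Cd3e and Cd3g were at 1.86 and 2.45, below the intron median of that array. On a3a6KO 4, where Tnfsf11 was highest, Ptprc was at 3.59, Cd3e at 2.13 and Cd3g at 2.42. Cd3e (at most 2.49) and Cd3g (at most 2.48) lay below the intron median on every array. The part of T cells in the Tnfsf11 values was not tested. Fibroblast markers (9 genes) lay between -0.23 and 0.56 in a3a6KO and between -0.13 and 0.31 in control, and adipocyte markers (7 genes) between -0.30 and 0.27 in a3a6KO and between -0.15 and 0.30 in control.

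**Figure D3:**
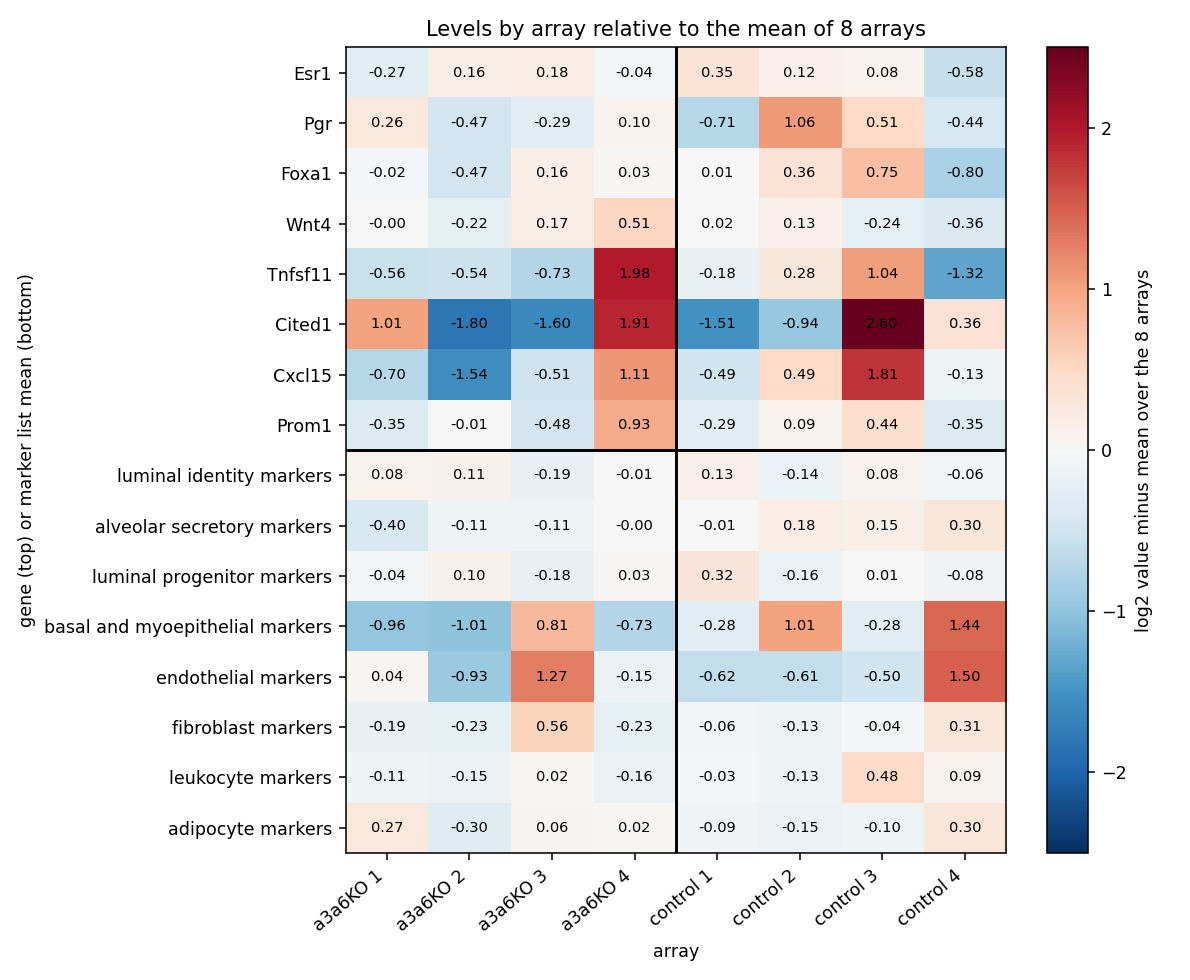
Heat map of log2 values minus the mean over the 8 arrays (colour and printed number) for the 8 hormone-sensing genes (top rows) and for the means of 8 marker lists (bottom rows), with the a3a6KO arrays left of the line and the control arrays right of it. Cited1, Tnfsf11, Cxcl15 and Prom1 are highest on a3a6KO 4 and control 3, while endothelial markers are highest on a3a6KO 3 and control 4. Basal markers are highest on control 4 and control 2, followed by a3a6KO 3.

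The start regions of the 4 genes that were high together are shown because they are the stretches in which shared motifs could be looked for. RefSeq windows of the 250 bases before the start (build GRCm38.p6) were found for 9 of the 10 listed genes, Gata3 included, and where several starts were given the outermost was taken. Each sequence runs 5′ to 3′ on the strand of the gene, Cited1 from chrX:102252182-102252431 (- strand), Tnfsf11 from chr14:78308044-78308293 (- strand), Cxcl15 from chr5:90794284-90794533 (+ strand) and Prom1 from chr5:44101737-44101986 (- strand). Capitals mark matches to the searched letters on either strand: GGTCA, the core of an oestrogen response element, its palindrome of GGTCA and TGACC with 3 bases between them (which overlaps the core motif), TGTTCT of progesterone receptor elements, TGTTTAC of forkhead factors, AGATAA of GATA factors, and TATAAA of a TATA box.
Cited1: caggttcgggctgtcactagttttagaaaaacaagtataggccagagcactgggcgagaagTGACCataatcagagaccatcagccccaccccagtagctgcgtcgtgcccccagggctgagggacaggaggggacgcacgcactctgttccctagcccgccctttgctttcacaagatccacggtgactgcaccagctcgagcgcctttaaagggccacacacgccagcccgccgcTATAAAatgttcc
Tnfsf11: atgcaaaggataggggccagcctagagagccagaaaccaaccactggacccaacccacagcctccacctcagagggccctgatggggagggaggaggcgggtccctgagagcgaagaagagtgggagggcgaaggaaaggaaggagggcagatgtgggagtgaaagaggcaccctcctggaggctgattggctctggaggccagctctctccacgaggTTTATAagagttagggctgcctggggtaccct
Cxcl15: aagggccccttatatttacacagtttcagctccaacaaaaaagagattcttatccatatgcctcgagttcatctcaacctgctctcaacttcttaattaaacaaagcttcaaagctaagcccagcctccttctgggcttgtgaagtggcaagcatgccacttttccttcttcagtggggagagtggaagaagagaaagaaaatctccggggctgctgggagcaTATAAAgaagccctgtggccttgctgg
Prom1: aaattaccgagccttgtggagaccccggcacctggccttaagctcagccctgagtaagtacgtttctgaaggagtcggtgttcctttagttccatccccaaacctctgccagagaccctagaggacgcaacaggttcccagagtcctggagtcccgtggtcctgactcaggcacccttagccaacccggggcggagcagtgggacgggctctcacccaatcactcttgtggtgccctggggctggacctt
The oestrogen core was found in Cited1 among these 4, and in 3 of the 9 windows in all (Cited1, Foxa1 and Gata3), against 35.2% of all 32851 RefSeq windows of that length. The spaced palindrome, which 0.0639% of windows hold, was in none of the 9. The forkhead letters were in Foxa1 alone (3.17% of windows), and the progesterone receptor letters (16.1%) and the GATA letters (9.99%) in none of the 9. TATA letters lay in the windows of Pgr, Cited1, Tnfsf11 and Cxcl15, where 12.4% of windows have them anywhere in the 250 bases. Relative to the start, these matches began at -212 in Pgr, -13 in Cited1, -32 in Tnfsf11 and -27 in Cxcl15. All shares are over windows of every listed start, while each gene here has only its outermost one. Prom1 had no match to any of the searched letters. A match is a run of letters and no evidence of binding, and most known response elements lie outside such windows.

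The genes most like Cited1, Tnfsf11, Cxcl15 and Prom1 over the 8 arrays were listed among genes above the background line on at least 4 arrays. The rule for naming such genes asked for hormone-sensing genes above that line on every array and none qualified, so these 4 were chosen after their values were seen. Nearest to Cited1 was Rnf181 (Pearson r 0.97, Spearman rho 0.90), which encodes a ubiquitin ligase, followed by Mpp5 (r 0.94, rho 0.79) and Ankrd13b (r 0.92, rho 0.88). Nearest to Tnfsf11 were Alcam (r 0.95, rho 0.98), a cell adhesion gene, Elk4 (r 0.95, rho 0.93), an ETS factor gene, and Dcun1d5 (r 0.93, rho 0.81). Cxcl15 was followed most closely by Slc35b1 (r 0.92), Nhp2 (r 0.91) and Dynlrb1 (r 0.89), and Prom1 by Tpd52 (r 0.94) and the histone genes H4c11 (r 0.93) and H3c13 (r 0.91). These names were picked from 2746 candidates over 8 arrays that also differ in signal, and they describe these arrays only.

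Other genes of hormone-sensing cells and of hormone response had lower means in a3a6KO in 10 of 12 measured members (15 listed), against 9822 of all 19505 genes, with a median difference of -0.33 against -0.002 over all genes. The basal (11 of 11) and alveolar secretory (10 of 10) markers also had lower means, and their part in this count was not tested. Of the 12, 0 passed the adjusted threshold in limma and 1 had an unadjusted p under 0.05 (8.33%, against 5.13% of all genes). It was Stc2, which encodes the secreted glycoprotein stanniocalcin 2, an oestrogen-induced gene in human breast cells. Stc2 was at 3.75, 3.91, 3.31 and 3.33 in a3a6KO 1 to 4, against 5.78, 5.09, 4.94 and 4.29 in control 1 to 4, a difference of -1.45 (SE 0.305) with an unadjusted limma p of 0.000952 and an adjusted p of 0.844. Each a3a6KO value lay below each control value, but on all 8 arrays Stc2 stayed under the background line. The groups did not overlap in 1 of the 12 genes (8.33%), against 2.94% of all genes. Xbp1, a transcription factor gene of the secretory pathway that oestrogen also induces in human breast cells, was above the line on every array and differed by -0.40 (SE 0.211). Greb1, an early oestrogen receptor target, differed by -0.43 and the ETS factor gene Spdef by -0.72, and Spdef stood at 6.43 on control 3 against 3.95 to 4.75 on the other controls. The mean of the 12 genes relative to their averages was -0.34 to 0.09 in a3a6KO and -0.14 to 0.64 in control, highest on control 3. The arrays on which Cited1, Tnfsf11, Cxcl15 and Prom1 peaked were also the 2 highest for 5 of the 53 genes of the 4 lists (9.43%), of which Ncoa1, Med1 and Ep300 are coregulator genes and 2 belong to these 12, Fxyd2 (7.52 on a3a6KO 4, 7.98 on control 3, 6.09 to 7.48 elsewhere) and Wnt5a (4.65 on a3a6KO 4, 5.32 on control 3, 3.71 to 4.46 elsewhere).

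Other nuclear and hormone receptor genes had higher means in a3a6KO in 6 and lower means in 4 of 10 measured members (13 listed), with a median of 0.08, 0 past the adjusted threshold and 0 at an unadjusted p under 0.05. The vitamin D receptor gene Vdr, above the line on every array, differed by -0.38 (SE 0.287), and the glucocorticoid receptor gene Nr3c1 by 0.23. The growth hormone receptor gene Ghr differed by -0.35 and the thyroid hormone receptor gene Thrb by 0.33. Esr2, the gene of oestrogen receptor beta, lay between 2.74 and 3.35 on all arrays, close to the intron median.

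Coregulators and chaperones of steroid receptors had higher means in a3a6KO in 7 and lower means in 6 of 13 measured members (16 listed), with a median of 0.05 and 0 past either threshold. Crebbp, a histone acetyltransferase gene, differed by 0.28, the p160 coactivator gene Ncoa3 by 0.36, the corepressor gene Tle3 by 0.24 and the Hsp90 cochaperone gene Ptges3 by -0.38. Crebbp and Tle3 exceeded the background line on every array, and Ncoa3 and Ptges3 on none.

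Genes that receive the RANK ligand and Wnt signals had higher means in a3a6KO in 10 and lower means in 8 of 18 measured members (22 listed), with a median of 0.069 and 0 past either threshold. Tnfrsf11a, the gene of the receptor RANK, was at 4.72, 4.22, 5.77 and 5.40 in a3a6KO 1 to 4, against 5.32, 5.49, 5.07 and 5.87 in control 1 to 4, a difference of -0.41 (SE 0.337). Its adaptor gene Traf6 differed by -0.50, the NF-kB subunit gene Relb by 0.55 and Map3k14, which encodes the kinase NIK of the noncanonical NF-kB pathway, by 0.28. Id2, which RANK signalling acts through in alveolar growth, exceeded the line on every array and averaged 8.26 ± 0.75 in a3a6KO and 7.92 ± 0.84 in control (SD, n = 4 each). Over all 4 lists, 1 of 53 genes (1.89%) had an unadjusted p under 0.05, against 5.13% of all genes.

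**Figure D4:**
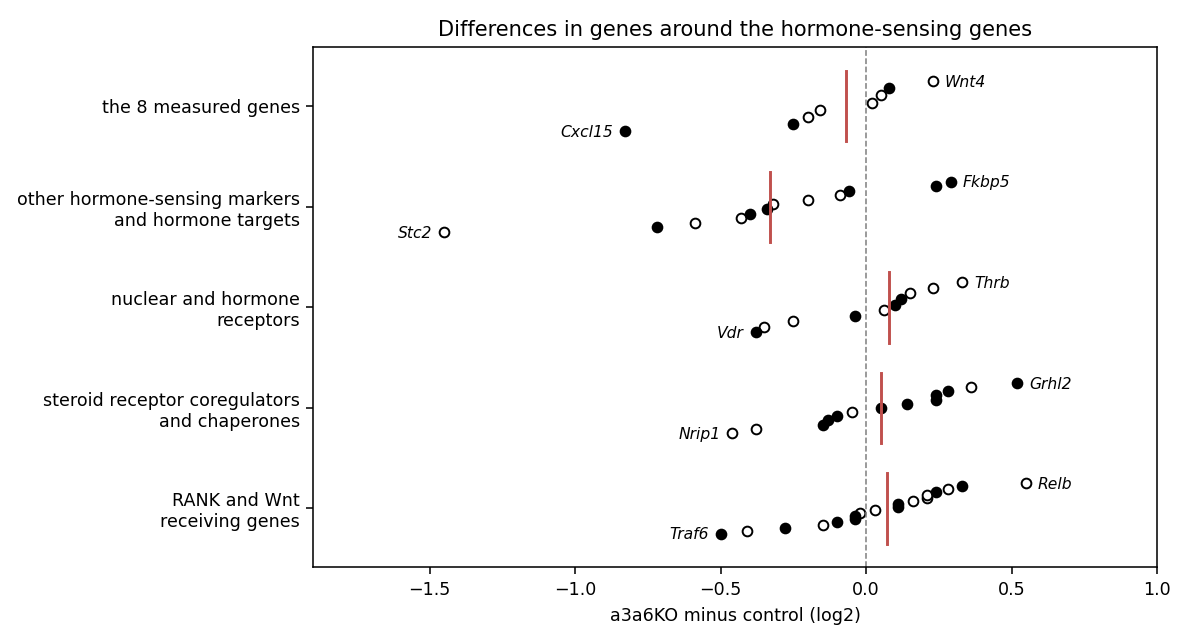
Differences of single genes, a3a6KO minus control on the log2 scale (x axis), for the 8 hormone-sensing genes and the 4 lists around them, with open points for genes above the background line on no array and a red line at the median of each list. The medians are -0.07 for the 8 genes and -0.33, 0.08, 0.05 and 0.069 for the lists from top to bottom, and Stc2 lies farthest from 0 at -1.45.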

How the data were processed

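Expression was measured on 8 Affymetrix arrays. Per the labels' protocols, RNA was amplified with the Ovation Pico WTA System V2 and labelled with the Encore Biotin Module. The deposited values are log2 values per probe set, made by the authors with Affymetrix Expression Console and RMA per the submitters' processing notes, versions not stated. RMA makes the arrays alike by quantiles, so a shift shared by most genes is not seen. Values ran from 0.96 to 13.28 and were used as deposited. Of 28846 probe sets, 19572 had 1 gene symbol in GEO's platform annotation, and the set with the highest mean was kept per gene (19505 genes, 55 with several sets). The genome build of the probe sets is not given in the sources used here.

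a3a6KO was compared with control in limma 3.58.1 (R 4.3.3; lmFit, eBayes, group only, two-sided). P-values were adjusted by Benjamini-Hochberg across the 19505 genes, with a threshold of 0.05, and the fit was tested on simulated data. Single-gene p-values come from limma. Correlations were tested by exact permutation over all orders of the 8 arrays. Precision is limited by the 4 arrays per group, with a standard error of 0.234 for the median gene. Named genes were the 10 listed, Itga3, Itga6, up to 4 genes of smallest p per pathway list and, for hormone-sensing genes above background on every array, the 3 genes most correlated with them. Marker genes were named from lists by their level, and others after their values were seen. The hormone-sensing genes and all lists were chosen with earlier results of these data known. Alternatives changed the probe set rule, the filter on dim genes, centring, variance model, replicate block and arrays used. Motifs were searched with a regular expression on both strands. Sequences are from RefSeq.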

Additional observations from a re-analysis of the deposited data

Results flagged for a closer look

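Tnfsf11 was at 6.57 in a3a6KO 4, far from the other a3a6KO samples at 3.86 to 4.05, with a gap of 0.93 of the range of the group. Traf6 was at 7.24 in control 1, against 5.49 to 5.73 in the other controls, with a gap of 0.863 of the range. These 2 were found among 52 groups of 4 samples (26 genes, each in both groups: the 8 hormone-sensing genes, Itga3, Itga6 and the 16 genes of smallest p in the pathway lists), and chance gives about 1 in 20 such groups.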

How the results depend on the processing

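The count of hormone-sensing genes past the threshold was 0 under all 15 alternatives run, as were the counts over all genes and over the pathway lists, and the smallest adjusted p of a hormone-sensing gene in limma was 0.908. At an unadjusted p under 0.05 the only such gene was Cxcl15, without a3a6KO 4 (beside 1061 of 19505 genes) and without a3a6KO 4 and control 3 together (beside 1012 genes), with adjusted p in limma of 0.918 and 0.944. With the median of the intron sets as the line in place of their 95th percentile, 8 of the 8 genes exceeded it on every array. The median difference was -0.25 with dim genes left out, where 3 of the 8 remained, and -0.26 to 0.13 when single arrays were left out. With single arrays left out, Esr1 ran from -0.18 to 0.13, Pgr from -0.48 to 0.11, Foxa1 from -0.45 to 0.07, Tnfsf11 from -0.57 to 0.44, Cited1 from -0.93 to 0.58 and Prom1 from -0.25 to 0.22. Without a3a6KO 3 and control 4, Esr1 was at -0.23, Tnfsf11 at -0.09 and Cited1 at 0.32. Without a3a6KO 4 and control 3, chosen after seeing the data, Foxa1 was at 0.03, Tnfsf11 at -0.20 and Prom1 at -0.10. The cause of these turns was not tested. The replicate block left 0 genes past the threshold and the median at -0.07. Same-numbered samples did not deviate together over all genes (correlations of 0.03, 0.04, -0.05 and -0.06). This does not show whether such samples were handled together, and the main comparison used the numbers only as names. Most hormone-sensing values lay under the background line, which limits what the arrays can show of these genes.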
